A study of Mus musculus with 4 samples.

Results

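Described here are 8 mouse genes of dead-cell and debris uptake: the bridging ligands Gas6 and Pros1, the receptor tyrosine kinases Axl and Mertk, the scavenger receptors Cd36, Msr1 and Stab1, and the phosphatidylserine receptor Timd4. They were chosen by name for their shared role, as the rows carrying these symbols among 32285 gene rows. To compare secondary injury areas of the brain, the study profiled CD45+ cells of the thalamus and of the hippocampus (HPC) by droplet-based scRNA-seq (10x Genomics). Every animal was a C57B6/J mouse with cortical brain injury, so both sides of the region contrast were injured and no uninjured tissue was compared. The labels give no age, sex or time after injury. Per the methods of the study, the injured hemisphere was dissected, and live CD45+ cells pooled from 4 mice per region were sorted. Oligo tags split the pool of each region into 4 sets (n = 4 thalamus and n = 4 HPC sets), and a set was taken as 1 mouse on the word of the methods alone. Since every region had a separate 10x library, a difference between regions below cannot be told apart from one between libraries. The sort was on a surface protein shared by microglia and leukocytes, and its gene Ptprc had a UMI (a molecule counted once by its unique identifier) in 82.4% of thalamus cells and 86.5% of HPC cells.

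Dying cells and pruned synapses expose phosphatidylserine, a lipid that healthy membranes keep on their inner face. Gas6 and protein S (the product of Pros1) bind this lipid with one end and TAM receptors with the other, and so tether the target to a phagocyte. The TAM family is named after Tyro3, Axl and Mertk. Axl prefers Gas6 and is known as a receptor that reactive myeloid cells raise, whereas Mertk accepts either ligand and is a steady receptor of resting microglia and tissue macrophages. Tim-4, encoded by Timd4, and stabilin-1, encoded by Stab1, bind phosphatidylserine with no bridge. CD36 and the class A scavenger receptor encoded by Msr1 take up modified lipoproteins, and CD36 also carries fatty acids and cooperates in the uptake of apoptotic cells.

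The genes lie on 7 chromosomes of GRCm38 and are mostly intron (GENCODE M21). Axl spans 31.4 kb (chr7:25757273-25788705, minus strand), Mertk 104 kb (chr2:128698956-128802894, plus strand) and Cd36 107 kb (chr5:17781690-17888801, minus strand). Stab1 is more compact, with 58 exon blocks in 29.6 kb (chr14:31139013-31168641, minus strand). Gas6 (chr8:13465374-13494490), Pros1 (chr16:62854307-62929346), Msr1 (chr8:39581685-39642673) and Timd4 (chr11:46810800-46844332) span 29.1, 75, 61.0 and 33.5 kb. Intron made up 95.8% of Mertk and 96.6% of Cd36 against 65.3% of Stab1, and whether intronic reads were counted is not stated. On the same strand, 124 bases of Mertk are shared with the snoRNA gene Gm23172. On the opposite strand, 3100 bases of Gas6 are shared with Tmem255b, 2435 bases of Mertk with the antisense gene Gm14011 and 112 bases of Stab1 with Nt5dc2. Whether the counting used strand is not stated either, so the counts of these stretches are uncertain.

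Promoter sequence is shown for Axl and Mertk, the receptors that stood on opposite sides of the microglial states below, and for Cd36 and Stab1, which differed between regions in opposite directions. Each line gives the 250 bases before the gene's start in the RefSeq table for GRCm38.p6, 5′ to 3′ on the strand of the gene. The start of Cd36 in that table lies inside the gene, which has 6 starts of coding transcripts. Capitals mark a GC box (GGGCGG, or CCGCCC on the other strand) and, in Cd36, the nuclear receptor core motif AGGTCA on the other strand (TGACCT).
Axl, chr7:25788734-25788983, minus strand: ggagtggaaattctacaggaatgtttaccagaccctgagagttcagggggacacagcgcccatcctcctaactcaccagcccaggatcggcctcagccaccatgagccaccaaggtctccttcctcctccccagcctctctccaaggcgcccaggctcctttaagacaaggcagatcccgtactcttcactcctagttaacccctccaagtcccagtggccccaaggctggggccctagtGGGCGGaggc
Mertk, chr2:128698665-128698914, plus strand: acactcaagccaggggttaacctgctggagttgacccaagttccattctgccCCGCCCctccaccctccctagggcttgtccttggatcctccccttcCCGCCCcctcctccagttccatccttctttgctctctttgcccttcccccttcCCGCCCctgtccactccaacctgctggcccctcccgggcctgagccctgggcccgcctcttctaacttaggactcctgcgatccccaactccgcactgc
Cd36, chr5:17835897-17836146, minus strand: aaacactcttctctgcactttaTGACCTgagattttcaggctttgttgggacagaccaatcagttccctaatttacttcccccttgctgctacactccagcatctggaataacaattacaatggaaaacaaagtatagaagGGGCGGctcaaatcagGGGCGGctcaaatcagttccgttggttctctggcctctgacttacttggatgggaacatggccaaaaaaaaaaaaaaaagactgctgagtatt
Stab1, chr14:31168642-31168891, minus strand: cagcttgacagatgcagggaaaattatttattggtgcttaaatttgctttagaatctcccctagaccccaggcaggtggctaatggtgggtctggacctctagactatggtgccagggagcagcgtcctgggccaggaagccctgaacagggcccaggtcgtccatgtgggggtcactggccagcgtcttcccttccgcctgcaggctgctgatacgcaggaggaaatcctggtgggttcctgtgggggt
The RefSeq table held 7 of the 8 genes, without Msr1. Over 300 bases, from 250 before to 50 after the start, GC boxes were found in Axl (2), Mertk (4), Gas6 (4), Pros1 (5, of which 2 overlap) and Cd36 (2), and 35.9% of 27025 promoters of this length held at least 1. The core AGGTCA was found in Cd36 and Timd4, against 16.0% of all promoters. None of the 7 held the PU.1 site GAGGAAGT (3.28% of all promoters) or the AP-1 site TGANTCA (7.93%), searched on both strands. Cd36 had the lowest GC content of the 7, at 43.0% with 3 CpG, and Pros1 the highest, at 66.7% with 21 CpG, around a median over all promoters of 52.7% with 7. A match of letters is a description of this window and no binding site was measured.

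After filtering, 24939 of 29190 cells were kept, 2161 to 3490 per thalamus set and 2072 to 5389 per HPC set, with median UMIs per cell of 4261.5 to 4596.5 and 4534 to 4657. No cell barcode occurred in more than 1 set of a region, and 65 barcodes (0.223%) occurred in both libraries. By their markers, 18691 cells were microglia-like and 547 macrophage- or monocyte-like. Of the rest, 345 were dendritic-like, 1010 neutrophil-like, 112 B- or plasma-like and 3127 T- or NK-like, and 1107 (4.44%) stayed unnamed. Among microglia, 11073 cells were homeostatic-like, 2786 resembled disease-associated microglia (DAM-like), 551 were interferon-like and 137 cycling. The 4144 other microglia-like cells matched no state, and they were led by Aoah, Cxcl13, Rxrg and Cp, by C4b, or by MHC class II genes. DAM-like cells made up 18.4% ± 5.09 of kept cells in the thalamus and 4.16% ± 1.33 in the HPC (SD, n = 4 and 4). HPC set 1 stood apart from the other HPC sets, with 1883 of those 4144 unmatched cells, 545 of the 1010 neutrophil-like cells and 80.5% of its cells kept against 92.9% to 95.6%. Values without it are given beside the main region results that it moves. Thalamus set 1, which carries the same number, was kept in all of these.

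The ligand Gas6 was a transcript of microglia in all their states. Its level, in UMIs per 10,000 UMIs of the cells, was 1.17 ± 0.252 in other microglia-like, 0.985 ± 0.144 in DAM-like, 0.940 ± 0.0713 in homeostatic-like and 0.819 ± 0.241 in interferon-like cells (SD, n = 8 sets). Macrophage- or monocyte-like cells had 0.511 ± 0.201 (n = 7 sets with at least 20 cells), and neighbours in this order overlapped throughout. Within microglia the highest cluster was 1 of 735 cells led by C4b, a complement gene, at 2.10, against 0.753 to 1.51 in the other 8 clusters. T- or NK-like cells had 0.0767 ± 0.0617, or 5.81% of the microglial level. The 12 microglial markers stood at a median of 5.59% of their microglial level in these lymphocytes, with a range of 3.91% to 6.93%. This was taken as the background of free microglial RNA, so Gas6 lay at that background there.

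Pros1, which encodes the anticoagulant protein S, was also a microglial transcript, with less spread between sets. Homeostatic-like cells had 3.26 ± 0.287 UMIs per 10,000, other microglia-like cells 2.99 ± 0.339, DAM-like cells 2.63 ± 0.181 and interferon-like cells 2.60 ± 0.330 (SD, n = 8 sets). These ranges overlapped, and then came a break. Macrophage- or monocyte-like cells had 0.625 ± 0.255 (n = 7), with the highest set at 1.00 and the lowest interferon-like set at 2.03, so the ranges were apart. Dendritic-like, neutrophil-like and T- or NK-like cells had 0.293, 0.285 and 0.242, and overlapped each other.

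Axl was highest in macrophages and reactive microglia and low in homeostatic microglia. Macrophage- or monocyte-like cells had 1.55 ± 0.414 UMIs per 10,000 (n = 7), DAM-like cells 1.40 ± 0.205 and interferon-like cells 1.37 ± 0.525 (SD, n = 8). Other microglia-like cells had 0.795 ± 0.224, dendritic-like cells 0.50 ± 0.119 (n = 5) and homeostatic-like cells 0.280 ± 0.176. Every neighbouring pair in this order overlapped, but the lowest DAM-like set (1.16) lay above the highest homeostatic-like set (0.551). In T- or NK-like cells Axl stood at 0.130 ± 0.0351, which is 22.6% of the microglial level. The 12 microglial markers reached a median of 5.59% in those cells and at most 6.93%, so Axl lay above them.

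Mertk had its highest mean level in homeostatic-like cells, but neighbouring microglial states overlapped. The homeostatic-like sets ran from 11.7 to 16.4 and the interferon-like sets from 11.2 to 16.2. Homeostatic-like cells had 14.7 ± 1.67 UMIs per 10,000, interferon-like cells 13.3 ± 1.62, other microglia-like cells 12.6 ± 0.786 and DAM-like cells 9.97 ± 1.3 (SD, n = 8). Macrophage- or monocyte-like cells stood apart at 2.09 ± 0.805 (n = 7), with a highest set of 3.23 under the lowest DAM-like set of 8.0. Neutrophil-like, dendritic-like and T- or NK-like cells followed at 1.24, 0.667 and 0.472. In the last of these Mertk was at 3.56% of its microglial level, below the range of 3.91% to 6.93% of the 12 microglial markers there.

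**Figure D1:**
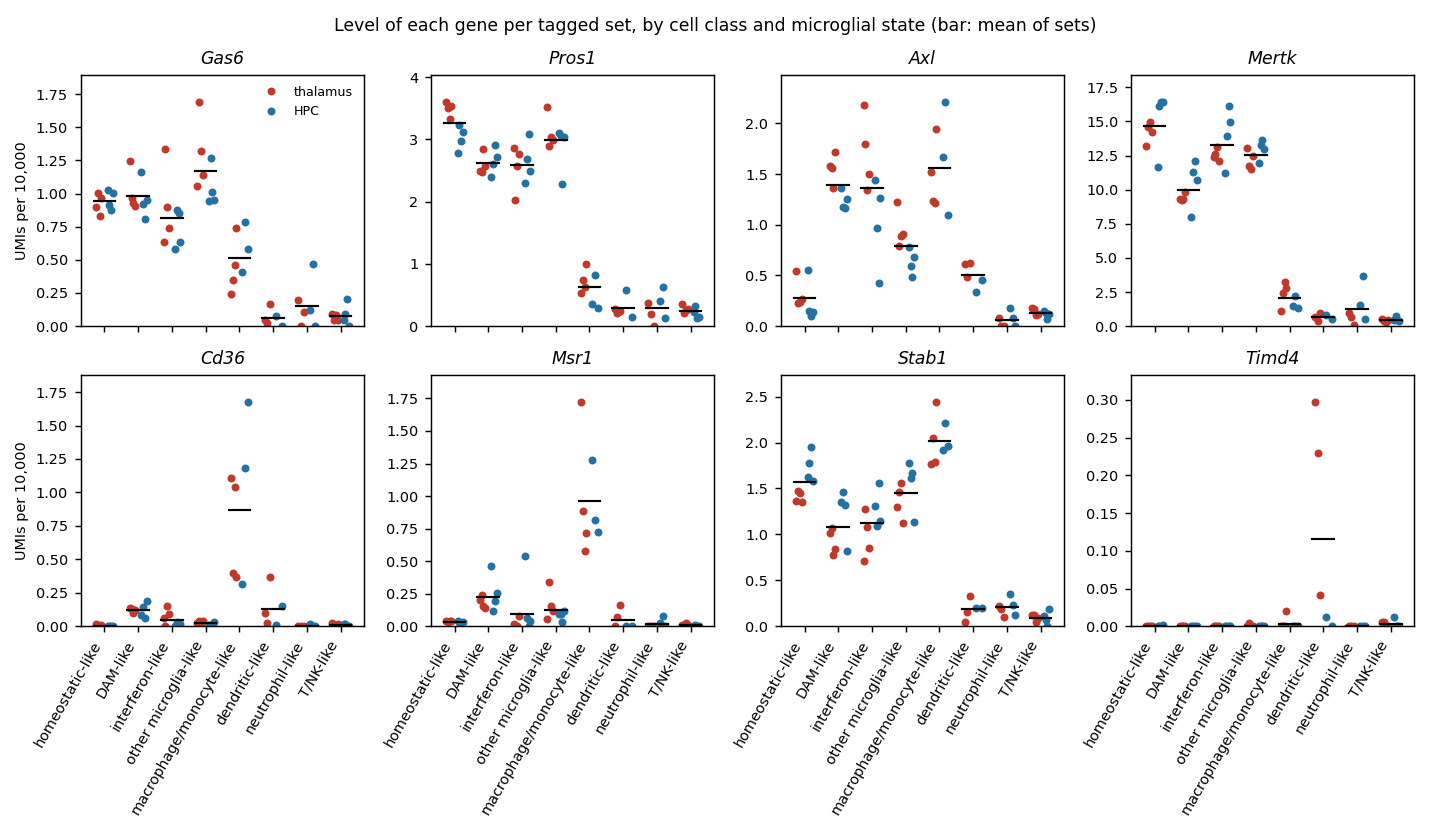
Level of the 8 genes (vertical axes from 0, UMIs per 10,000 UMIs) by microglial state or cell class, with 1 point per tagged set of at least 20 cells (red thalamus, blue HPC) and a bar at the mean over sets. Axl, Cd36 and Msr1 sit lower in homeostatic-like than in DAM-like cells, Pros1 and Mertk break between microglia and the other classes, and Timd4 rises from 0 in dendritic-like cells.

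Msr1 and Cd36 were highest in the mixed class of macrophages and monocytes. Msr1 stood at 0.960 ± 0.401 UMIs per 10,000 in macrophage- or monocyte-like cells (SD, n = 7), apart from DAM-like cells at 0.221 ± 0.109 and homeostatic-like cells at 0.0345 ± 0.00602 (n = 8). Within microglia the highest Msr1 level was in the C4b-led cluster of 735 cells, at 0.348. The DAM-like clusters had 0.215 and 0.213. Cd36 had 0.869 ± 0.519 in macrophage- or monocyte-like cells, 0.132 ± 0.146 in dendritic-like, 0.122 ± 0.0388 in DAM-like and 0.00523 ± 0.00452 in homeostatic-like cells. Its homeostatic-like level lay under the 0.0102 ± 0.00965 of T- or NK-like cells, so it was not above the level of lymphocytes. A further source was a small B- or plasma-like class, where HPC set 1 had 20 UMIs of Cd36 in 76 cells (0.285 UMIs per 10,000). The other 7 sets held at most 8 such cells.

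Stab1 was carried by macrophages and microglia alike. Macrophage- or monocyte-like cells had 2.02 ± 0.238 UMIs per 10,000 (SD, n = 7), homeostatic-like cells 1.58 ± 0.207, other microglia-like cells 1.46 ± 0.244, interferon-like cells 1.13 ± 0.265 and DAM-like cells 1.08 ± 0.269 (n = 8), with overlap between neighbours. Neutrophil-like cells stood apart below them at 0.205 ± 0.0896 (n = 6).

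Timd4 was detected in few cells. In all, 43 UMIs fell in 22 of 24939 cells. Of these, 31 UMIs fell in 14 of 345 dendritic-like cells, 18 of them in thalamus set 1 and 10 in thalamus set 2. Microglia-like cells had 3 UMIs in 3 of 18691 cells, and macrophage- or monocyte-like cells 2 UMIs in 2 of 547. DAM-like cells had 0 of 2786 cells with a UMI, which allows a share of up to 0.108% of cells with a UMI and sets no limit on cells that express the gene. Floors and count intervals cover counting error only. At 7 UMIs in 3 of 3127 T- or NK-like cells, the gene was too sparse for any contrast between regions.

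Next, it was asked how the genes stood in DAM-like against homeostatic-like cells of the same sets. The genes described here were left out of the clustering features, but the states come from clusters of these very cells, so the values are a description with no test. Axl, Cd36 and Msr1 were higher in DAM-like cells in 8 of 8 sets, and Mertk, Pros1 and Stab1 were lower in 8 of 8. Of 12140 genes with at least 100 UMIs in these cells, 9.59% were higher in 8 of 8 sets and 24.7% were lower, with a median log2 difference of -0.19, so lower values in DAM-like cells were common.

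In thalamus sets 1 to 4 Axl stood at 0.548, 0.232, 0.238 and 0.271 UMIs per 10,000 in homeostatic-like and 1.58, 1.56, 1.36 and 1.72 in DAM-like cells. In HPC sets 1 to 4 the homeostatic-like values were 0.551, 0.153, 0.101 and 0.144 and the DAM-like values 1.36, 1.17, 1.16 and 1.25. The states did not overlap, and set 1 of each region had the highest homeostatic-like level. The ratio of the mean levels was 4.99, with a mean log2 difference of 2.49 ± 0.73 (SD over 8 sets). Mertk went the other way with a smaller ratio of 0.678 and a steadier log2 difference of -0.56 ± 0.08. In thalamus sets its homeostatic-like levels were 13.2, 14.6, 15.0 and 14.2 and its DAM-like levels 9.30, 9.25, 9.33 and 9.83. In HPC sets they were 11.7, 16.1, 16.4 and 16.4 and then 8.0, 11.3, 12.1 and 10.7. Within every set the DAM-like level was the lower one, although HPC sets 2 and 3 had DAM-like values near the homeostatic-like value of HPC set 1.

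For Cd36 the ratio was 23.4 and the log2 difference 3.11 ± 0.47, on the log2(level + 0.01) scale that holds for every such difference here. The homeostatic-like mean lay below the 0.01 added, so the size of this difference rests on that choice, and at 0.1, a setting chosen after the data were seen, it was 1.06 ± 0.24, with 8 of 8 sets still higher. The homeostatic-like range was 0.000795 to 0.0140 and the DAM-like range 0.0645 to 0.190 UMIs per 10,000. The homeostatic-like values rested on 20 UMIs of Cd36 in 11073 cells (14 thalamus and 6 HPC UMIs), against 186 UMIs in DAM-like cells. The size of the ratio is therefore uncertain as well. Msr1 had a ratio of 6.41 (2.28 ± 0.63, and 1.2 ± 0.43 at 0.1), from 0.0219 to 0.0400 up to 0.119 to 0.465. Stab1 had a ratio of 0.687 (-0.57 ± 0.26) and Pros1 one of 0.807 (-0.31 ± 0.17). Gas6 was higher in 4 sets and lower in 4, with a ratio of 1.05.

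**Figure D2:**
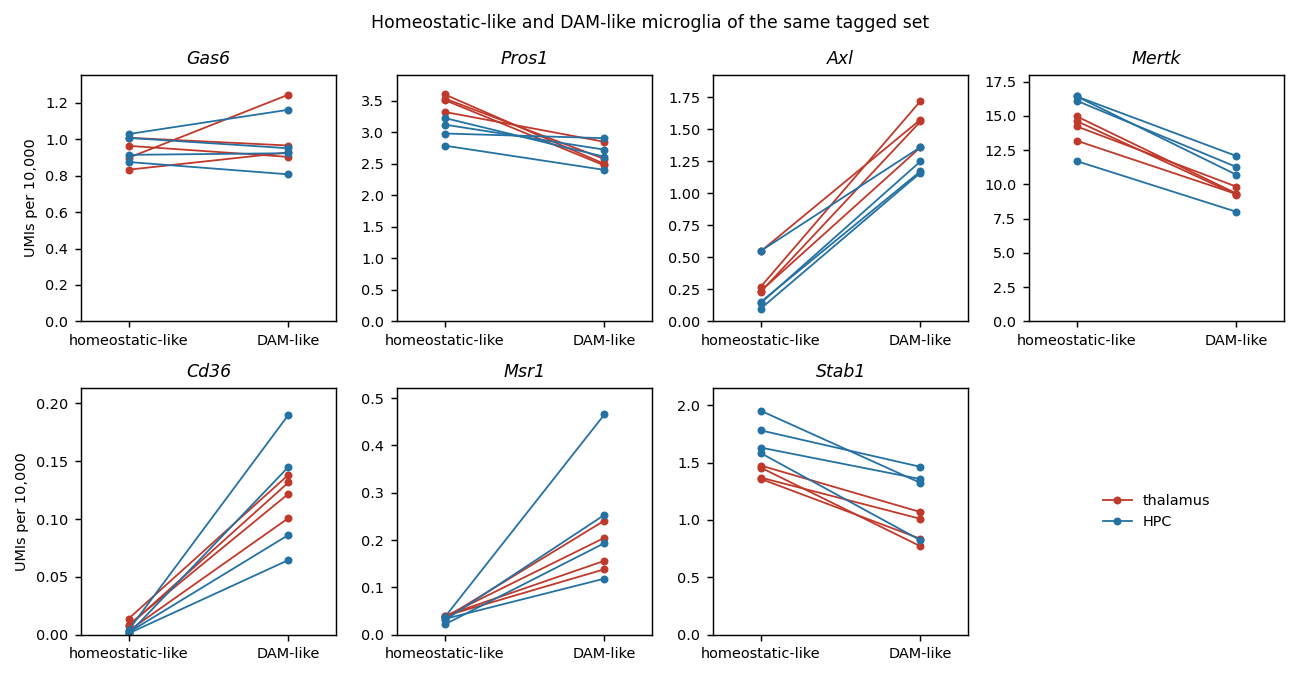
Level (UMIs per 10,000 UMIs, axes from 0) of 7 genes in homeostatic-like and DAM-like cells, with a line joining the values of the same tagged set (4 red thalamus and 4 blue HPC sets). Lines for Axl, Cd36 and Msr1 go up in 8 of 8 sets, those for Mertk, Pros1 and Stab1 go down in 8 of 8, and those for Gas6 go both ways.

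DAM-like cells held 2 clusters that differed in RNA content. The larger, of 1845 cells and led by Etl4, Colec12, Lpl and Igf1, had a median of 6577 UMIs and 172 Malat1 UMIs per 10,000. The smaller, of 941 cells and led by Spp1, Fabp5 and Cst7, had a median of 2172 UMIs and 9.81 Malat1 UMIs per 10,000 (Malat1 is a nuclear RNA). Mertk stood at 11.1 in the first and 0.614 in the second, and Pros1 at 2.82 and 1.23. Axl stood at 1.61 and 1.01, Gas6 at 0.953 and 1.51, Cd36 at 0.117 and 0.158, and Stab1 at 1.10 and 0.499. Homeostatic-like cells also held 2 clusters, of 5788 and 5285 cells. Mertk stood at 16.8 and 12.6 in these, Pros1 at 3.51 and 2.77, and Stab1 at 1.67 and 1.57. Pros1 in the second was thus not above its level in the larger DAM-like cluster, whereas Mertk and Stab1 were. Cells under 40 Malat1 UMIs per 10,000 were 36.4% of DAM-like cells in the thalamus, 20.3% in the HPC, and at most 0.147% of homeostatic-like cells. In a comparison added after the data were seen, without these Malat1-poor cells, the same 3 genes were higher in 8 of 8 sets (9.37% of 12102 genes) and the same 3 lower in 8 of 8 (19.1%). The ratios were then 5.21 for Axl, 0.757 for Mertk, 0.861 for Pros1 and 0.732 for Stab1, and Gas6 was higher in 2 sets and lower in 6.

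Macrophage- and monocyte-like cells differed among themselves in which receptors they carried. The 547 macrophage- or monocyte-like cells fell into 5 clusters, given here with exact Poisson intervals (95%) over the cells of both regions. A border macrophage-like cluster of 148 cells, led by Ccl8, Mgl2, Cd163, Pf4 and Mrc1, had the highest Stab1 level, 4.26 UMIs per 10,000 (3.78 to 4.79), the highest Gas6 level, 1.62 (1.33 to 1.95), and 2.55 of Axl (2.18 to 2.97). A monocyte-like cluster of 213 cells led by Ly6c2 had the highest Msr1 level, 1.53 (1.35 to 1.74), but 0.391 of Mertk (0.301 to 0.50) and 0.0306 of Gas6 (0.00993 to 0.0714). Another monocyte-like cluster, of 54 cells with Ace and Treml4 among its leading genes, had the highest Cd36 level, 3.19 (2.53 to 3.98), with 1 UMI of Axl, 1 of Stab1 and 0 of Gas6. The 107 unnamed cells led by Gpnmb had 3.68 of Mertk (3.25 to 4.16) and 2.11 of Axl (1.78 to 2.48). The last 25 cells, also unnamed and led by Csmd3 with Sall3 and Sparc, had 6.76 of Mertk (5.84 to 7.80) at a median of 11963 UMIs per cell, the highest of the 5 clusters.

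**Figure D3:**
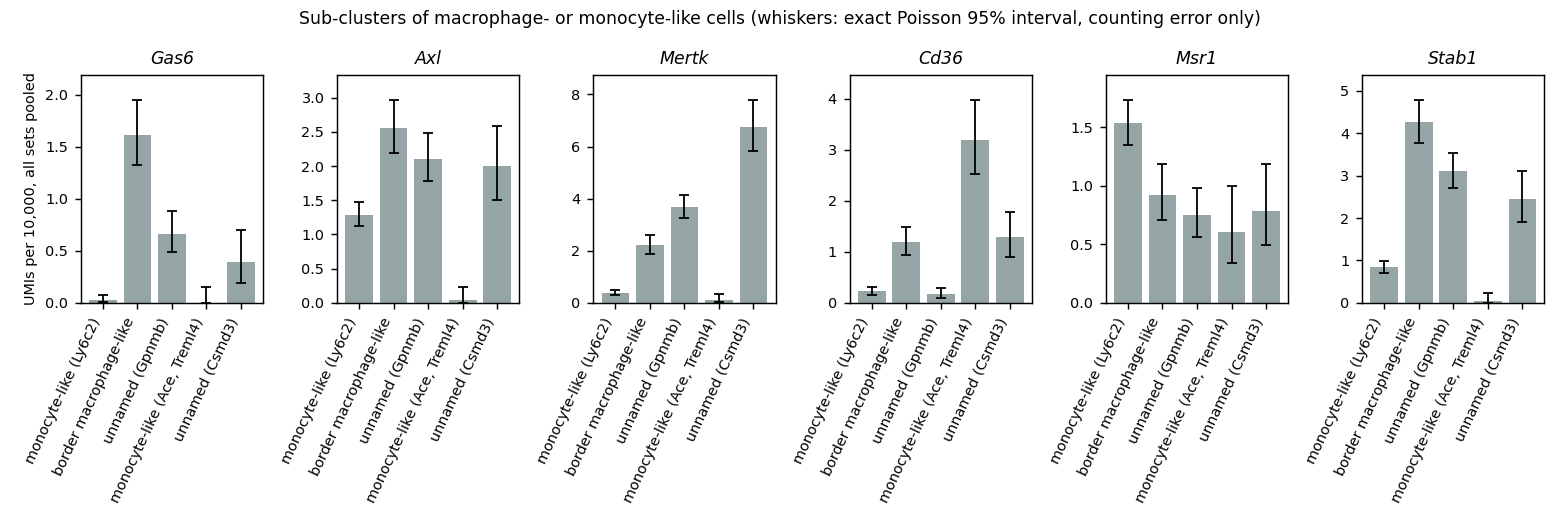
Level (bars from 0, UMIs per 10,000 UMIs) of 6 genes in the 5 clusters of macrophage- or monocyte-like cells, with all sets pooled and exact 95% Poisson intervals as whiskers, which cover counting error only. Stab1 and Gas6 are highest in the border macrophage-like cluster, Msr1 in the Ly6c2 monocyte-like cluster and Cd36 in the Ace and Treml4 cluster.

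The thalamus was then compared with the HPC over all microglia-like cells, by edgeR on counts summed per set, with Benjamini-Hochberg adjustment over 12949 genes. This fit left the sets unpaired, and a fit that pairs them by number is given further below. Of the 7 genes that passed the filter on low counts, Cd36 was called higher and Stab1 lower in the thalamus, while 14.2% of all genes tested were called, 9.18% higher and 4.98% lower. Timd4 did not pass the filter. P-values measure the spread between these sets.

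Cd36 stood at 0.0733, 0.0479, 0.0319 and 0.0520 UMIs per 10,000 in thalamus sets 1 to 4, and at 0.0129, 0.00900, 0.00331 and 0.0211 in HPC sets 1 to 4. All thalamus sets lay above all HPC sets. The log2 fold change was 2.22 ± 0.41 (SE, edgeR adjusted p = 0.00805, n = 4 and 4). It rested on few molecules, since mean CPM (counts scaled by TMM library size) was 5.30 ± 1.89 in the thalamus and 1.14 ± 0.731 in the HPC (SD). The call held in all 17 alternatives, at log2 fold changes of 1.97 to 2.56.

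Stab1 stood at 1.17, 1.37, 1.29 and 1.13 UMIs per 10,000 in the thalamus and at 1.68, 1.73, 1.91 and 1.44 in the HPC. All thalamus sets lay below all HPC sets, also after TMM scaling, and on that scale regions did not overlap for 21% of all genes tested. Its log2 fold change was -0.38 ± 0.09 (edgeR adjusted p = 0.0191). The call was lost without thalamus set 1 or 4 or HPC set 2 or 3 (edgeR adjusted p = 0.0503 to 0.0612), with the log2 fold change between -0.38 and -0.33 in these fits.

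Axl overlapped between the regions through 1 set. The thalamus values were 1.21, 0.716, 0.597 and 0.870 UMIs per 10,000, and the HPC values 0.794, 0.273, 0.158 and 0.358. HPC set 1 lay inside the range of the thalamus and the other 3 HPC sets lay under it. The log2 fold change of 1.13 ± 0.44 was not called in the unpaired fit (edgeR adjusted p = 0.112). Without HPC set 1 it was 1.79 (edgeR adjusted p = 0.00255). Mertk went from 11.4, 12.5, 13.3 and 12.4 in the thalamus to 11.5, 15.5, 16.2 and 15.4 in the HPC, again with HPC set 1 inside the thalamus range, and its log2 fold change was -0.16 ± 0.09 (edgeR adjusted p = 0.266). Without HPC set 1 it was -0.24 (edgeR adjusted p = 0.0163), and Msr1 was called as well at 1.33 (edgeR adjusted p = 0.0146), against 0.70 (edgeR adjusted p = 0.30) with all sets. That made 5 calls instead of 2, while the calls over all genes went from 14.2% to 23.6%. The fit without HPC set 1 kept thalamus set 1, which had the highest Axl (1.21) and the lowest Mertk (11.4) of the thalamus sets. It was thus unbalanced, and no fit left out set 1 of both regions.

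Neither ligand was called in the unpaired fit, whereas Gas6 was called in the paired fit below. Gas6 ranged over 0.894 to 1.2 against 0.876 to 0.980 in thalamus and HPC, and its log2 fold change was 0.19 ± 0.10 (edgeR adjusted p = 0.209). Pros1 ranged over 3.07 to 3.18 and 2.93 to 3.16, with a log2 fold change of 0.11 ± 0.05 (edgeR adjusted p = 0.124). After TMM scaling all thalamus sets lay above all HPC sets for Pros1, a lack of overlap shared by 21% of genes. Msr1 overlapped, with 0.0730 to 0.169 in the thalamus and 0.0276 to 0.126 in the HPC.

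**Figure D4:**
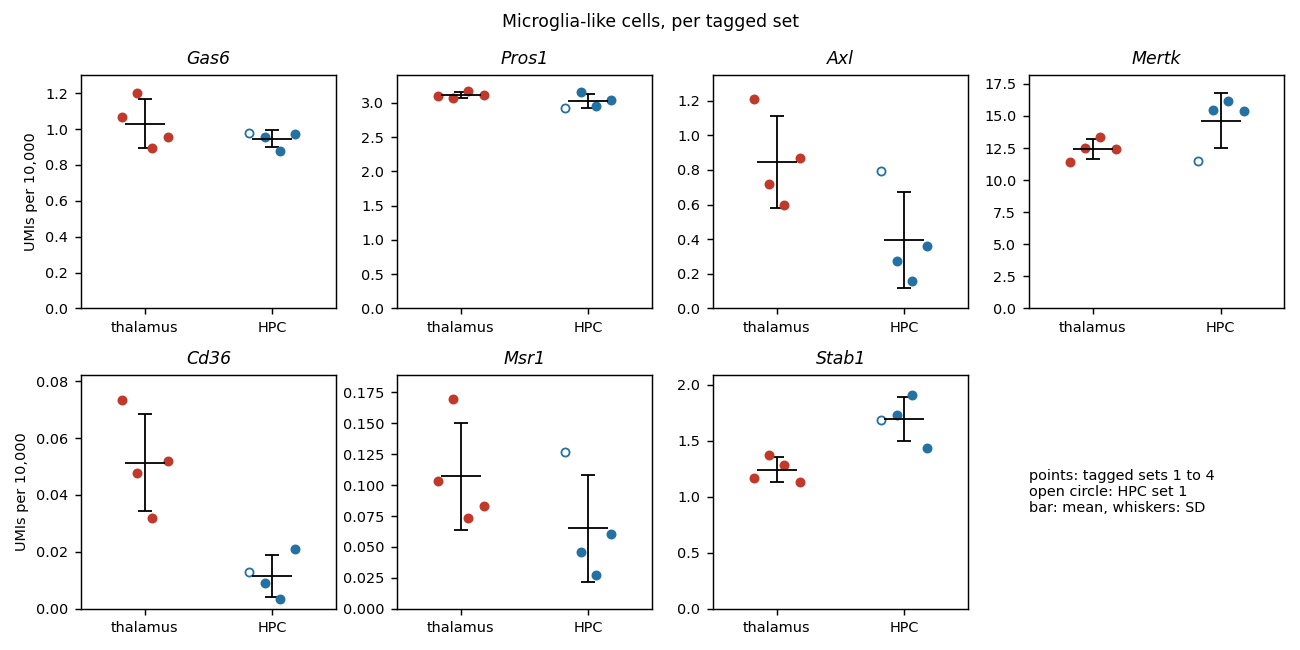
Level (UMIs per 10,000 UMIs, axes from 0) of 7 genes in microglia-like cells, with a point per tagged set (4 red thalamus and 4 blue HPC sets, HPC set 1 as an open circle), a bar at the mean and whiskers of 1 SD. The regions do not overlap for Cd36 and Stab1, and HPC set 1 lies inside the thalamus range for Axl and Mertk.

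Sets of the same number deviated together in microglia-like cells (correlations of 0.146 to 0.514), so the fit was repeated with the set number as a block. With this pairing 4 genes were called, namely Axl at a log2 fold change of 1.27 (edgeR adjusted p = 0.000235), Gas6 at 0.19 (edgeR adjusted p = 0.0330), Cd36 at 2.26 and Stab1 at -0.37. In this fit 30.4% of all genes were called, against 14.2% without the block.

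Part of these differences moved with the makeup of the states. The pooled thalamus level over that of the HPC was 1.97 for Axl, and 1.44 or 1.35 after weighting the 9 microglial clusters of a region as in the HPC or as in the thalamus. For Cd36 the ratio went from 4.57 to 2.02 or 1.53, and for Mertk from 0.869 to 0.943 or 0.955. Stab1 went from 0.726 only to 0.787 or 0.772. Msr1 went from 1.44 to 0.935 or 0.717. Without HPC set 1, a setting chosen after the data were seen, Axl went from 3.29 to 1.79 or 1.53, Cd36 from 4.83 to 1.76 or 1.19, Mertk from 0.790 to 0.883 or 0.908, Stab1 from 0.724 to 0.803 or 0.822, and Msr1 from 2.32 to 1.32 or 1.21, so that Msr1 stayed above 1 there. Summed macrophage or monocyte markers (14 genes) in microglia-like cells ranged over sets from 9.38 to 15.1 UMIs per 10,000 for the thalamus against 3.65 to 11.1 for the HPC. They thus moved in the direction of Cd36 and Axl. Their median over sets was 24.0 in thalamus and 20.1 in HPC DAM-like cells, against 5.84 and 4.20 in homeostatic-like cells. The part of these markers in the result was not tested.

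Shares of cells with a UMI were compared after thinning every microglia-like cell to 2384 UMIs, which left out 599 of 8255 thalamus and 223 of 10436 HPC cells. Every set lost a larger part of its DAM-like than of its homeostatic-like cells. Thalamus set 1 kept 618 of 828 DAM-like and 593 of 609 homeostatic-like cells, and HPC set 4 kept 98 of 103 and 1517 of 1545. Thinned shares thus rest on a changed mix of states, whereas values before thinning cover all microglia-like cells. The effect of this loss on the shares was not tested. Mertk was detected in 86.1% ± 3.38 of thalamus and 92.0% ± 3.50 of HPC cells (SD, n = 4 and 4), and in 88.5% and 96.8% before thinning. Axl was detected in 14.8% ± 5.25 and 7.58% ± 5.55 (25.9% and 14.2% before thinning), with 4.89% ± 1.68 in the HPC without its set 1 (n = 3). Pros1 was detected in 49.4% and 48.5% of thalamus and HPC cells, and Gas6 in 20.4% and 19.1%. Cd36 was detected in 0.879% ± 0.309 and 0.183% ± 0.131, and Stab1 in 25.1% ± 1.77 and 31.8% ± 2.49. For Cd36 and Stab1 the regions did not overlap. The two-sided unpaired exact permutation p was 0.0286, the smallest that 70 assignments allow, and 0.114 once adjusted over the 8 genes compared. How many of all genes had shares without overlap was not computed, and for levels it was 21%. Thinned T- or NK-like cells gave a reference, at 0.165% for Cd36, 1.68% for Stab1, 2.5% for Axl and 5.66% for Mertk, with median UMIs per set of 3326 to 4212 against 4438 to 5018 in microglia-like cells. In level these lymphocytes stood above the marker background for Axl (22.6% of the microglial level) and for Cd36 (48.7%), so for both genes the reference may hold more than free RNA. The Cd36 share of HPC microglia lay near that of the lymphocytes, and that of the thalamus above it.

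Within DAM-like cells, Axl was the only one of 7 genes called, and 6.02% of 9874 genes were called there, 4.12% higher and 1.89% lower in the thalamus. Its log2 fold change of thalamus over HPC was 0.41 ± 0.11 (edgeR adjusted p = 0.0325, n = 4 and 4). After TMM scaling all thalamus sets lay above all HPC sets, a lack of overlap shared by 12.6% of genes, but in plain UMIs per 10,000 the lowest thalamus and the highest HPC set both stood at 1.36. The call was lost without any 1 of 6 of the 8 sets (edgeR adjusted p = 0.0559 to 0.123; it held without thalamus set 3 or HPC set 1) and when the regions were clustered without integration (log2 fold change 0.23, edgeR adjusted p = 0.393). It held without Malat1-poor cells at 0.42 (edgeR adjusted p = 0.0256). Msr1 was not called at -0.66 ± 0.29 (edgeR adjusted p = 0.213) and stood at 0.14 without HPC set 1. Stab1 was not called at -0.34 ± 0.15 (edgeR adjusted p = 0.192), and Cd36, Gas6, Pros1 and Mertk were at 0.18, 0.12, 0.09 and -0.03.

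Within homeostatic-like cells, Stab1 was the only one of 6 genes called, and 2% of 11923 genes were called there, 1.57% higher and 0.428% lower in the thalamus. It stood at 1.37, 1.47, 1.46 and 1.36 UMIs per 10,000 in thalamus sets and at 1.63, 1.78, 1.95 and 1.58 in HPC sets. The regions did not overlap, which held for 9.43% of genes, and the log2 fold change was -0.30 ± 0.07 (edgeR adjusted p = 0.0362, n = 4 and 4). The call was lost without any 1 of the thalamus sets or HPC set 2 or 3 (edgeR adjusted p = 0.0795 to 0.137). Pros1 was higher in all thalamus sets than in all HPC sets, at 3.32 to 3.60 against 2.79 to 3.22, but was not called at 0.20 ± 0.06 (edgeR adjusted p = 0.106). Axl stood at 0.49 ± 0.48 with all sets (edgeR adjusted p = 0.710) and at 1.2 without HPC set 1 (edgeR adjusted p = 0.00155), where 4 of 6 genes and 8.85% of all genes were called. That fit kept thalamus set 1, the highest thalamus set for Axl at 0.548 UMIs per 10,000. Mertk, Gas6 and Msr1 were at -0.09, -0.05 and 0.34 with all sets.

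In macrophage- or monocyte-like cells 0 of 7 genes were called by edgeR or by DESeq2, 0 had an unadjusted p under 0.05 in edgeR, and 0.0157% of 6375 genes were called (4 thalamus and 3 HPC sets, since HPC set 4 held 18 such cells). Log2 fold changes ran from -0.40 for Gas6 to 0.54 for Pros1. On simulated counts with a known log2 change of 1 this contrast recovered 45.3% of changed genes, against 82.8% in microglia-like cells, so differences of that size could be missed here.

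**Figure D5:**
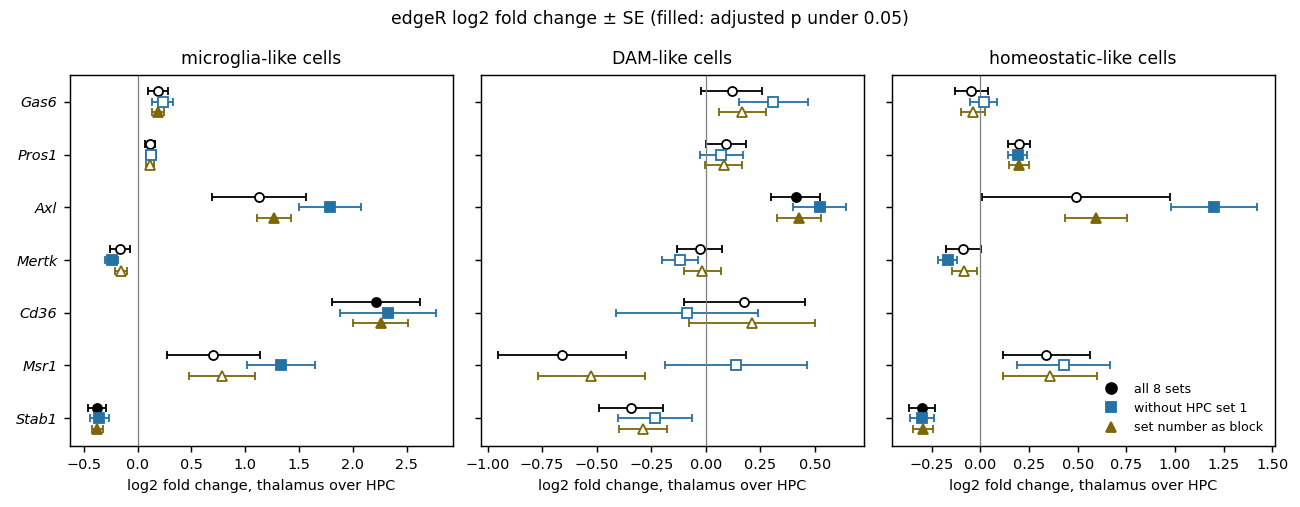
Log2 fold change of thalamus over HPC with its standard error (edgeR, counts summed per set) in microglia-like, DAM-like and homeostatic-like cells, from all 8 sets (circles), without HPC set 1 (squares) and with set number as a block (triangles), filled at an adjusted p under 0.05. With all sets, Cd36 and Stab1 are called in microglia-like cells, Axl in DAM-like and Stab1 in homeostatic-like cells, and leaving out HPC set 1 or adding the block adds Axl in the first and last.

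Whether the step from homeostatic-like to DAM-like cells differed between regions was tested itself for the 7 measured genes. No gene had an unadjusted p under 0.05, where the smallest exact permutation p that 4 against 4 sets allow is 0.0286. With so little room below 0.05, the lack of a call does not show that the steps were equal. The lowest two-sided exact permutation p was 0.0571, for Pros1, unadjusted for the 7 genes, whose log2 difference was -0.43 ± 0.14 in the thalamus and -0.19 ± 0.11 in the HPC (SD, n = 4 and 4). Axl had 2.32 ± 0.55 and 2.65 ± 0.93 (exact permutation p = 0.514), and Mertk -0.59 ± 0.09 and -0.53 ± 0.07 (exact permutation p = 0.314).

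Other genes of the pathway were taken from 5 lists. Among other phosphatidylserine receptors and bridging proteins, 3 of 10 measured genes were called higher and 1 lower in thalamus microglia-like cells, where 9.18% of all genes were called higher and 4.98% lower. Among other scavenger receptors, 4 of 9 were called higher and 0 lower, with a median log2 fold change of 0.45 over the list against -0.02 over all genes. Within DAM-like and homeostatic-like cells the median of that list was 0.026 and 0.014. Engulfment signalling had 2 higher and 1 lower of 12, and phagosome processing and cargo efflux 2 higher and 1 lower of 12. Receptor shedding and opposing signals had 0 of 6 called by edgeR, with 4 of the 6 at an unadjusted p under 0.05. The share of all genes at that unadjusted p is not given, so the 4 cannot be set against it. Of the called genes with at least 20 CPM, the largest rises were in Colec12, a collectin scavenger receptor and leading gene of a DAM-like cluster (log2 fold change 2.75 ± 0.41, edgeR adjusted p = 0.00332), Anxa5, a phosphatidylserine-binding annexin (1.59 ± 0.26, edgeR adjusted p = 0.00519), and Ucp2, a mitochondrial carrier that aids continued uptake (0.58 ± 0.07, edgeR adjusted p = 0.00118). The falls were in Cd300a, an inhibitory phosphatidylserine receptor (-0.47 ± 0.07, edgeR adjusted p = 0.00303), Rubcn, a regulator of LC3-associated phagocytosis (-0.26 ± 0.05, edgeR adjusted p = 0.0131), and Dock1, an activator of Rac in engulfment (-0.20 ± 0.05, edgeR adjusted p = 0.0383). In DAM-like cells the 5 lists had 7 genes called higher and 5 lower of 45 measured (4.12% and 1.89% of all genes), and in homeostatic-like cells Cd300a was the only call, at -0.37 (edgeR adjusted p = 0.00502), with 1.57% of all genes higher and 0.428% lower.

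The genes whose pattern was most like that of each gene were taken over 18 means of a region and a class or state, among 6635 genes, as a description with no test. Axl was most like Npc2 (Pearson r = 0.933), Cpq (0.918) and Hsd17b12 (0.913), and Mertk was most like Slco2b1 (0.990), Mir99ahg (0.987) and Lhfpl2 (0.987). Gas6 went with the complement genes C1qc (0.979) and C1qa (0.974) and with Snx24 (0.974), and Pros1 with Plxdc2, Abhd12 and Gpr34 (0.984, 0.984 and 0.983). Stab1 was most like C3ar1 (0.968), Tnfsf12 (0.958) and Pdlim4 (0.954). Cd36 had looser partners in Prdx1 (0.876), Ldlrad3 (0.823) and Myof (0.797). The 18 points share libraries, and their depth was not matched.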

How the data were processed

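Single-cell libraries of thalamus and HPC were processed by the authors with Cell Ranger (version 7.1.0 in the file headers, whereas the methods name an earlier one) against mm10, and the deposited values are raw UMI counts per gene and cell, already split by oligo tag into 4 matrices per region. The 12 oligo rows were left out. Cells with 200 to 7500 genes and a mitochondrial share of at most 2% were kept. Clustering used Seurat 5.3.0 (2000 features, with the 8 genes removed, integration of the regions, 30 dimensions, resolution 0.5), and clusters were named from marker lists. Doublets were kept, and an alternative dropped the 5% of cells with the highest Scrublet scores.

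Counts were summed per set and class (at least 20 cells) and tested with edgeR 4.0.16 (quasi-likelihood, TMM scaling, filter on low counts, Benjamini-Hochberg over all genes tested, threshold 0.05) in R 4.3.3. The alternatives included DESeq2 1.42.0, other clusterings and leaving out each set. Shares and state differences had exact permutation tests over sets. Depth was 2161 to 3490 kept cells per thalamus set and 2072 to 5389 per HPC set, and precision is limited by 4 sets a region. The edgeR step was tested on simulated data and recovered 82.8% of genes changed by 1 on the log2 scale, and 100% of those changed by 2, in microglia-like cells (12825 genes).

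Set numbers come from the deposited matrices and not from the labels. Deviations from the region means correlated between sets of the same number at 0.514, 0.146, 0.479 and 0.185 in microglia-like cells, all over 0.1. In the other classes the correlations were positive, from 0.0444 to 0.290, but not all over 0.1. The cut of 0.1 was a choice, with no values for sets of unlike number beside it. A mouse shared by sets of the same number would pair them in every class. The main fits and the permutation tests left the sets unpaired in all classes, and the block is shown as an alternative.

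All 8 genes were named whatever their values. Of the pathway lists, the up to 3 largest changes in each direction among called genes with at least 20 CPM were named, and the 3 genes of highest Pearson r for each gene reaching 1 UMI per 10,000, among genes reaching 50 CPM. The genes, lists, motifs and naming of states were chosen with earlier results of these data known. A further gene was not analysed here.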

Additional observations from a re-analysis of the deposited data

Results flagged for a closer look

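In each region and class the 4 sets were searched for 1 set far from the other 3, by a gap to its nearest neighbour, as a share of the whole range, over Dixon's 95% critical value. Of 58 groups of 4 sets, 6 held such a set, and chance alone gives about 1 in 20. In homeostatic-like cells Axl stood at 0.548 UMIs per 10,000 in thalamus set 1, against 0.232 to 0.271 in the other thalamus sets, and at 0.551 in HPC set 1, against 0.101 to 0.153. HPC set 1 was also far below the other HPC sets for Mertk, at 11.5 against 15.4 to 16.2 in all microglia-like cells and at 11.7 against 16.1 to 16.4 in homeostatic-like cells. In interferon-like cells it had 0.540 of Msr1, against 0 to 0.0623. The last case was a small one, Mertk in DAM-like cells, with 9.83 in thalamus set 4 against 9.25 to 9.33. Of the 6 cases, 4 were HPC set 1.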

How the results depend on the processing

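Microglia-like cells had 2 calls, and 1 to 5 when 1 set was left out. DAM-like cells had 1 call, 0 to 1 with 1 set left out, 2 with no filter on low counts (adding Msr1 at -0.63, edgeR adjusted p = 0.0424) and 0 without integration. Homeostatic-like cells had 1 call, 0 to 4 with 1 set left out and 2 with DESeq2. Macrophage- or monocyte-like cells had 0 throughout. In the main fits of these 4 classes 14.2%, 6.02%, 2% and 0.0157% of all genes were called. Without HPC set 1 these shares rose in microglia-like and homeostatic-like cells, so the counts cannot be read without them.

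With set number as a block (pairing), the calls were 4 in microglia-like, 1 in DAM-like, 3 in homeostatic-like and 0 in macrophage- or monocyte-like cells, where Cd36 turned to 0.093. Of all genes, 30.4%, 10.4%, 6.06% and 0.0503% were called in these fits, against 14.2%, 6.02%, 2% and 0.0157% without the block. In homeostatic-like cells the added calls were Axl at 0.60 and Pros1 at 0.20 (edgeR adjusted p = 0.0379 and 0.0337). Outside microglia-like cells the correlations between same-numbered sets were weaker but positive, from 0.0444 to 0.290. Whether sets of the same number share a mouse is not known.

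The values that changed sign were small or uncertain, and the cause was not tested. In DAM-like cells Mertk went from -0.03 to 0.013 with no filter, 0.14 without integration and 0.062 without Malat1-poor cells, and Cd36 from 0.18 to -0.29 without integration, -0.024 at resolution 1 and -0.040 without Malat1-poor cells. Homeostatic-like Gas6 went from -0.05 to 0.026 without integration and 0.082 at resolution 1. Macrophage- or monocyte-like Stab1 went to 0.022 without the top doublet scores and 0.085 at a mitochondrial limit of 5%. The Pros1 share differed by -1.80 points unthinned. The state difference of Mertk between regions went to 0.085 without Malat1-poor cells and 0.20 without integration, and that of Stab1 to 0.066. With 1 set left out, DAM-like Gas6 ranged over -0.024 to 0.31, Cd36 -0.086 to 0.40, Msr1 -0.91 to 0.14 and Mertk -0.12 to 0.023, homeostatic-like Gas6 -0.093 to 0.016, macrophage- or monocyte-like Msr1 -0.46 to 0.43, Stab1 -0.12 to 0.042, Cd36 -0.92 to 0.10 and Axl -0.36 to 0.012, and the Timd4 share -0.0107 to 0.00140 points. Counting sets between the states without Malat1-poor cells, or without HPC set 1, was chosen after seeing the data, as were the ratios of levels without HPC set 1 and the state differences at a pseudocount of 0.1. Over 4 sets a region and 1 library each, depth limits Cd36, Msr1 and Timd4 most.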
